A study of Rattus norvegicus with 6 samples.

Results

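Genes of homologous recombination and of the Fanconi anemia pathway were compared between RCS cells, a line of chondrocyte-like cells grown from a rat chondrosarcoma, and neonatal rat rib tissue, which holds cartilage together with other tissues. The genes were chosen by symbol: 30 named genes and any symbol of the form Fanca to Fancm, ignoring case. Of the 27217 genes of the table, 36 met this rule, 28 by name and 8 by the Fanconi form. The names Rad51b and Tp53bp1 were on the list and matched no symbol, and Fancd2 does not have the single-letter form and is treated below as a neighbour of the pathway. Each group had 3 libraries, called biological replicates by the submitters without saying which cultures or animals gave them, so p-values measure the spread between these libraries. No treatment or genetic change is named for either group, and RCS cells are a single tumour line.

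Homologous recombination copies the sister chromatid to mend a broken chromosome, and is used mainly in S and G2 phase, when a sister is present. Kinases sense the break, nucleases trim its ends, the BRCA proteins and a set of paralogs ready the bared strand to invade its partner, and helicases and nucleases take the joined molecules apart. The Fanconi anemia pathway deals with strands that are linked to each other: a core complex puts ubiquitin on the FANCI and FANCD2 pair, which brings in the recombination proteins. In growing cartilage the dividing cells include the columnar chondrocytes of the growth plate, and many genes of this group are known targets of the E2F factors that act before S phase.

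Most of the 36 genes were higher in RCS cells. In limma with Benjamini-Hochberg adjustment over all 16809 genes tested, 28 were higher in RCS cells (77.8% of the 36, where 32.9% of all genes tested were higher), 4 were lower (11.1%, against 43.6% of all genes tested) and 4 passed in neither direction. Calls in either direction made up 76.5% of all genes tested. The shares of 32.9% higher and 43.6% lower apply to the counts of every role and list below. At least 2-fold, 16 were higher, against 14.1% of all genes tested, and 2 were lower, against 33.1%. The median log2 difference, RCS cells minus rib tissue, was 0.87 over the 36 genes and -0.15 over all genes tested, and the range among the 36 ran from -1.65 (Fancf) to 2.69 (Exo1). The 28 higher genes and the 4 lower genes were those whose groups did not overlap, where 34.4% of all genes tested lay wholly higher and 44.5% wholly lower. All 36 were above 0 in all 6 libraries, so the filter on low values left none out.

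Levels are given as normalized counts. These were taken, from the pattern of low values, as reads scaled by a single factor in each library with no division by gene length. Levels are therefore compared between libraries and not between genes. Summed over the 36 genes, normalized counts made up 0.349%, 0.335% and 0.363% of the total in RCS replicates 1 to 3 and 0.147%, 0.169% and 0.162% in rib replicates 1 to 3. The RCS libraries lay closer to each other, with a median SD of 0.10 over the 36 genes on the log2 scale against 0.15 in rib tissue, and 25 of the 36 had the larger SD in rib tissue. The same held over all genes tested, at 0.11 and 0.23.

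**Figure D1:**
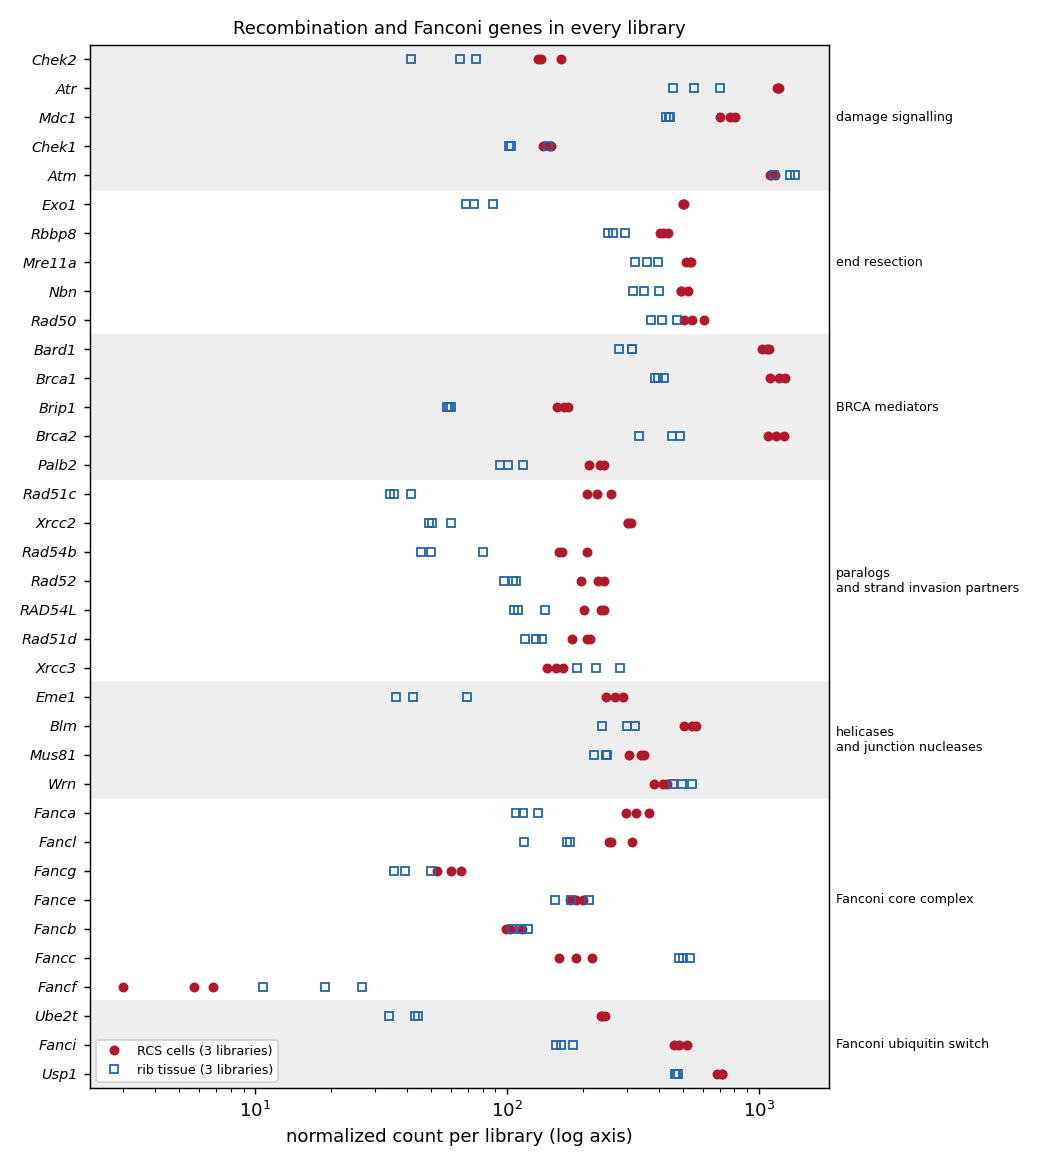
Normalized count of each of the 36 genes (log axis) in the 3 RCS libraries (filled circles) and the 3 rib libraries (open squares), grouped by role. Circles lie right of all squares at 28 genes and left of all squares at Xrcc3, Wrn, Fancc and Fancf.

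The promoters of these genes were read for the short motifs of cell cycle genes, because most of the group was higher in RCS cells. RefSeq promoters of the build GRCr8, each 300 bases with 250 before the start of the gene and 50 after it, were found for 29 of the 36 genes, 28 by symbol and 1 by Entrez identifier. The motifs were the E2F forms TTTCGCGC, TTTGGCGC, TTTCCCGC and TTTGCCGC, the CCAAT box, and TTTGAA, found in promoters of mitotic genes, each on both strands. These motifs are distinct and do not contain each other. An E2F form stood in 7 of the 29 promoters (24.1%), against 2.14% of all 33469 promoters and 2.73% of the 21842 of protein-coding genes. CCAAT was in 34.5% of the 29 and 37.5% of all promoters, and TTTGAA in 17.2% and 18.3%. The 7 sites are printed below with up to 10 bases on each side, in the direction of the gene, with the E2F form in capitals.
Bard1: tgccgctctgTTTCCCGCtcaggaagtt
Rad51d: cctgcatcctTTTCCCGCcccctcgtcc
Usp1: ggctcgcgccTTTCGCGCctctgcaacg
Fancl: tgttgcgccaTTTCCCGCtgctgctt
Fancc: ccttgcgaccGCGGGAAAattccaaact
Chek1: gcaggttttgGCGGGAAAagctgtgcac
Atm: atccgtgcacGCGGGAAAaggcgaagcg
They lie at Bard1 chr9:80143943-80143970 (- strand), Rad51d chr10:68321899-68321926 (- strand), Usp1 chr5:118703015-118703042 (+ strand), Fancl chr14:104451011-104451036 (+ strand), Fancc chr17:1687050-1687077 (+ strand), Chek1 chr8:44629854-44629881 (- strand) and Atm chr8:62828851-62828878 (- strand) of GRCr8. The form was TTTCCCGC in 6 of them and TTTCGCGC in Usp1. The 7 genes did not share a direction: Bard1, Rad51d, Usp1 and Fancl were higher in RCS cells, Fancc was lower, and Chek1 and Atm passed in neither direction. Their median log2 difference was 0.58 (range -1.42 to 1.82), and that of the 22 genes without such a form was 1.09 (range -1.65 to 2.69). The difference between these 2 sets was not tested. A match is a stretch of letters and not a measured binding site.

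The promoters of the most raised and most lowered genes with a promoter in the table, Exo1 and Rad51c against Fancf, are shown in full because they mark the extremes of the range. Fancf rests on few reads, about 5.7 to 12.5 in the RCS libraries, and its direction depended on the scaling. Capitals mark any of the searched motifs on either strand.
Exo1: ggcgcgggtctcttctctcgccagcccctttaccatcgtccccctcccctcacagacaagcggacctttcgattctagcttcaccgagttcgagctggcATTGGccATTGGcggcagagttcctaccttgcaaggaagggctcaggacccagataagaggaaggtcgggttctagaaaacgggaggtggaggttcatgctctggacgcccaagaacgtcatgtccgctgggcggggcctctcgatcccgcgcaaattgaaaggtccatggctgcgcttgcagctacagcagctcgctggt
Rad51c: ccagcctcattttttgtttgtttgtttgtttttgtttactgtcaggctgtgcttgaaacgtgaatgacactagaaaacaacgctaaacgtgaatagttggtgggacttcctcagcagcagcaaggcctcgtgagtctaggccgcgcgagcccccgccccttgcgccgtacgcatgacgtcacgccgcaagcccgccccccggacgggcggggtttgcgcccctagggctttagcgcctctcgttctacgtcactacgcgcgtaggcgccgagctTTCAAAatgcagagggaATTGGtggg
Fancf: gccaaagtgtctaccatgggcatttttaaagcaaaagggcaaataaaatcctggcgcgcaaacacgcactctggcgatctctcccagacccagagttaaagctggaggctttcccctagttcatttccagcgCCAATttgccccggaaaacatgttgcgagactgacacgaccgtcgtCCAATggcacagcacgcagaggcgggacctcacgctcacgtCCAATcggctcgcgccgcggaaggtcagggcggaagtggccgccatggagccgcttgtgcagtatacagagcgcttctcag
They lie at chr13:90341768-90342067 (+ strand), chr10:72728415-72728714 (- strand) and chr1:110587821-110588120 (- strand) of GRCr8. None of the 3 held an E2F form. Exo1 held a pair of CCAAT boxes on the reverse strand, Rad51c 1 CCAAT on the reverse strand and 1 TTTGAA on the reverse strand, all after the start in Rad51c, and Fancf 3 CCAAT boxes on the forward strand.

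Of the 5 genes of damage signalling, Atr, Chek2 and Mdc1 were higher in RCS cells. Atr, the kinase that answers to single-stranded DNA at stalled forks, was at 1204, 1182 and 1197 normalized counts in RCS replicates 1 to 3 and at 457, 554 and 698 in rib replicates 1 to 3. The lowest RCS library lay well above the highest rib library, a 2.13-fold difference (log2 1.09, SE 0.14, limma Benjamini-Hochberg adjusted p 0.00015). Atm, the kinase that answers to broken ends, was at 1117, 1104 and 1162 in RCS cells and 1144, 1329 and 1395 in rib tissue. Those groups overlapped, and the log2 difference of -0.19 (95% interval -0.40 to 0.02) did not pass the test. Without rib replicate 1 Atm was called lower (-0.27), as it was with array weights (-0.21), and under quantile normalization the value turned to 0.08.

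Of the checkpoint kinases that act after Atm and Atr, Chek2 was higher in RCS cells and Chek1 did not pass the test. Chek2, the usual substrate of ATM, stood at 133, 137 and 163 normalized counts in RCS cells and 65.2, 75.3 and 41.7 in rib tissue, 2.42-fold higher in RCS cells (log2 1.27, SE 0.22, limma Benjamini-Hochberg adjusted p 0.000869). Chek1, the usual substrate of ATR, stood at 146, 139 and 149 in RCS cells and at 104, 145 and 102 in rib tissue. Rib replicate 2 reached the RCS range, and the log2 difference of 0.32 (95% interval -0.03 to 0.68) did not pass. Chek1 was called higher without rib replicate 2 (0.49) and under quantile normalization (0.66). Mdc1, the scaffold at marked chromatin, was 1.72-fold higher in RCS cells (log2 0.78, SE 0.08).

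All 5 genes of end resection were higher in RCS cells, by very unequal amounts. Exo1 (ENSRNOG00000003876), the exonuclease of long-range resection, had the largest difference of the 36 genes, with 499, 503 and 501 normalized counts in RCS cells and 68.9, 87.9 and 74.2 in rib tissue. That is 6.47-fold (log2 2.69, SE 0.11, limma Benjamini-Hochberg adjusted p 2.28e-07). The genes that start resection moved little by comparison: Rbbp8, which encodes CtIP, was 1.55-fold higher, and the MRN complex genes Mre11a, Nbn and Rad50 were 1.47-fold, 1.41-fold and 1.32-fold higher. Rad50 had the smallest difference of the 5, at 604, 544 and 506 in RCS cells and 375, 472 and 412 in rib tissue (log2 0.40, SE 0.11, limma Benjamini-Hochberg adjusted p 0.00982). The 3 MRN genes, whose proteins form 1 complex, thus lay between 0.40 and 0.55 on the log2 scale.

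The BRCA genes were all higher by more than 2-fold. Brca1 (ENSRNOG00000020701), the ubiquitin ligase subunit and scaffold, was at 1265, 1105 and 1199 normalized counts in RCS cells and 388, 421 and 397 in rib tissue. The ranges were far apart, at 2.95-fold (log2 1.56, SE 0.08, limma Benjamini-Hochberg adjusted p 7.48e-07). Bard1, its obligate partner, was at 1096, 1078 and 1026 against 315, 312 and 278, 3.53-fold (log2 1.82, SE 0.08). Brca2 (ENSRNOG00000001111), a mediator of strand invasion, was at 1262, 1083 and 1167 against 335, 488 and 453, 2.78-fold (log2 1.47, SE 0.14, limma Benjamini-Hochberg adjusted p 2.52e-05). Rib replicate 1 was the lowest library for Brca2 and the other rib libraries lay close together. Palb2, the bridge between BRCA1 and BRCA2, had the smallest difference of these 5, with 233, 211 and 244 against 94.2, 116 and 101 (2.21-fold, log2 1.14, SE 0.12). Brip1, the helicase that binds BRCA1, was 2.81-fold higher (log2 1.49, SE 0.11), at 158 to 174 normalized counts against 57.7 to 60.0.

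The paralogs of strand invasion split. Rad51c, which takes part in both paralog complexes, was at 227, 208 and 258 normalized counts in RCS cells and 41.6, 35.5 and 34.4 in rib tissue, 6.08-fold higher in RCS cells (log2 2.60, SE 0.14, limma Benjamini-Hochberg adjusted p 1.02e-06). Xrcc2, of the paralog complex that also holds RAD51B and RAD51D, was at 304, 311 and 302 against 59.8, 50.3 and 49.0 (5.69-fold, log2 2.51, SE 0.12). Xrcc3, the other partner of RAD51C, went the opposite way, with 166, 157 and 144 in RCS cells and 282, 225 and 190.1 in rib tissue. Every RCS library lay below every rib library for Xrcc3, a log2 difference of -0.56 (SE 0.15, 1.47-fold higher in rib tissue, limma Benjamini-Hochberg adjusted p 0.00886, at most 0.0371 over 17 alternatives). Rad51d was 1.55-fold higher in RCS cells (log2 0.64, SE 0.11).

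The other genes of strand invasion and annealing were higher in RCS cells. Rad52, an annealing protein, was 2.13-fold higher (log2 1.09, SE 0.12). Rad54l, a motor protein of recombination listed as RAD54L, was 1.91-fold higher (log2 0.93, SE 0.14). Its relative Rad54b was at 166, 161 and 208 against 49.8, 80.2 and 45.6 (3.08-fold, log2 1.62, SE 0.22). The table describes the Rad54b row as fibrinogen silencer-binding protein, whose gene shares the locus and has a row of its own, FSBP, at 57.3, 57.4 and 50.9 against 16.0, 25.8 and 22.5 normalized counts. Reads of these overlapping genes may not have been told apart, so the Rad54b values are uncertain.

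**Figure D2:**
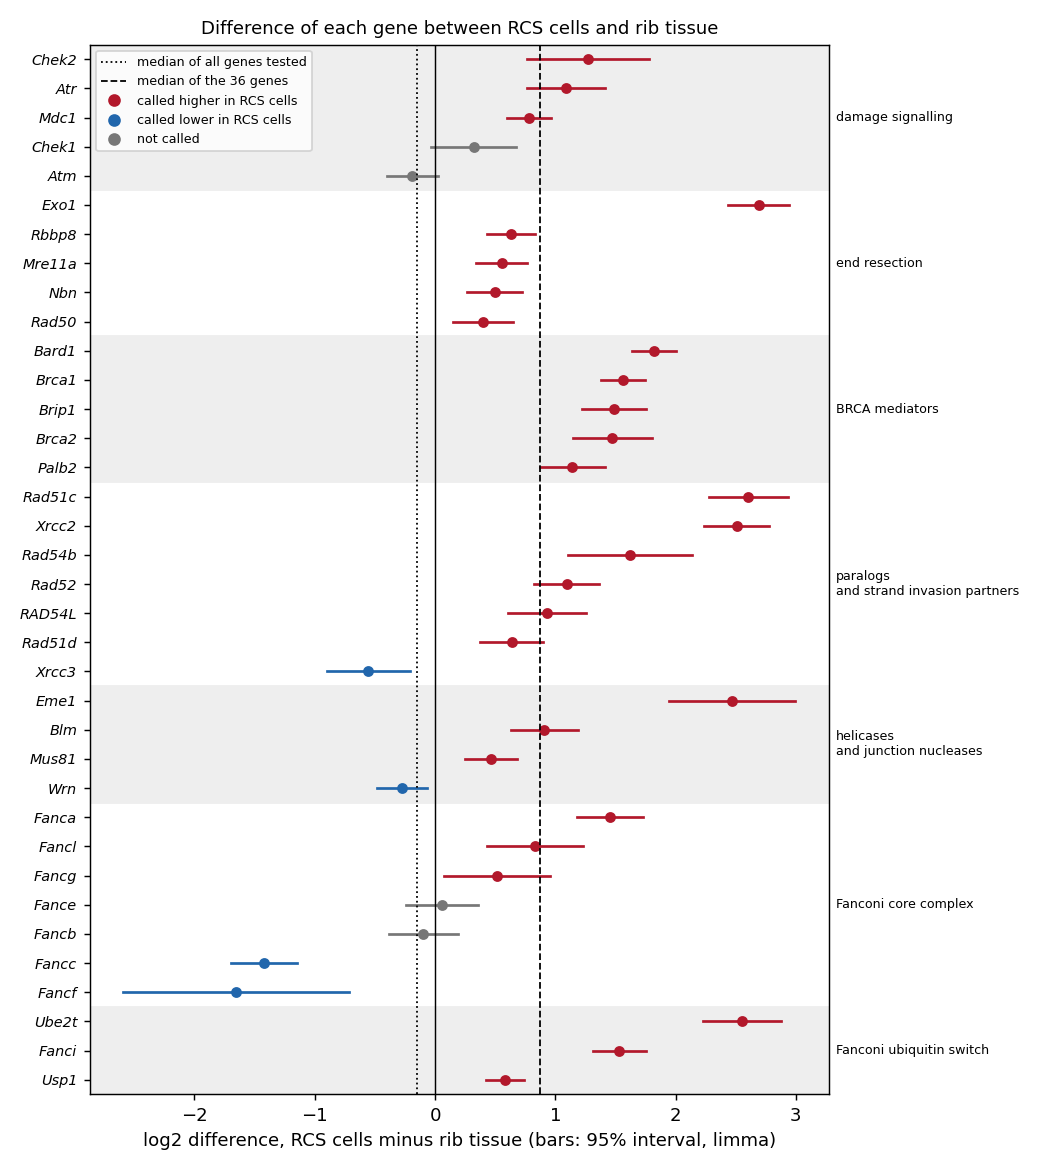
Log2 difference of each of the 36 genes, RCS cells minus rib tissue, with the 95% interval from limma, grouped by role. The BRCA and end resection genes all lie above 0, while the Fanconi core complex runs from -1.65 to 1.46. The dotted line is the median of all genes tested (-0.15) and the dashed line that of the 36 genes (0.87).

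Of the genes that take joined molecules apart, 3 were higher in RCS cells and 1 was lower. Eme1, the regulatory partner of the MUS81 nuclease, was at 288, 247 and 269 normalized counts in RCS cells and 69.6, 36.1 and 42.4 in rib tissue (5.54-fold, log2 2.47, SE 0.23, limma Benjamini-Hochberg adjusted p 1.98e-05). Mus81 itself was only 1.38-fold higher (log2 0.47, SE 0.09). Blm, the helicase that dissolves double junctions, was 1.88-fold higher (log2 0.91, SE 0.12), at 502 to 563 against 239 to 323. Wrn, a helicase of the same RecQ family, was lower, with 417, 385 and 432 in RCS cells and 458, 497 and 542 in rib tissue. The gap between the highest RCS and the lowest rib library of Wrn was small, and the log2 difference was -0.28 (SE 0.09, limma Benjamini-Hochberg adjusted p 0.0223). That call was lost without RCS replicate 1 (-0.29), RCS replicate 2 (-0.23) or rib replicate 2 (-0.28), with no intensity trend and under quantile normalization (-0.21).

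The Fanconi core complex, which carries the ubiquitin ligase, was the most mixed role, with a median log2 difference of 0.06 over 7 genes. Of these, 3 were higher (42.9%, against 32.9% of all genes tested), 2 lower (28.6%, against 43.6%) and 2 in neither direction. Fanca was at 366, 324 and 297 normalized counts in RCS cells and 133, 116 and 109 in rib tissue, 2.74-fold higher (log2 1.46, SE 0.12, limma Benjamini-Hochberg adjusted p 9.86e-06). Fancl, the ligase subunit itself, was 1.78-fold higher (log2 0.83, SE 0.17), at 255 to 313 against 117 to 179. Fancg was at 65.8, 60.0 and 52.9 against 39.2, 50 and 35.7, a log2 difference of 0.51 (SE 0.19, limma Benjamini-Hochberg adjusted p 0.0372). Rib replicate 2 came close to the lowest RCS library, and the Fancg call was lost without RCS replicate 1 (0.44) or 2 (0.51) or rib replicate 1 (0.48) or 3 (0.41), under median scaling (0.46) and with a replicate block (0.51, limma Benjamini-Hochberg adjusted p 0.0518).

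Fancc (ENSRNOG00000016889), a core subunit that pairs with FANCE and FANCF, was lower in RCS cells, with 161, 188 and 218 normalized counts against 484, 500 and 531 in rib tissue. The groups were far apart, at 2.68-fold higher in rib tissue (log2 -1.42, SE 0.12, limma Benjamini-Hochberg adjusted p 1.06e-05), and the call held in all 17 alternatives. Fancf was low in both groups, at 6.8, 3.0 and 5.7 normalized counts in RCS cells and 26.6, 10.7 and 18.9 in rib tissue, or about 5.7 to 12.5 reads against 10.5 to 35.1. It was called lower (log2 -1.65, SE 0.41, limma Benjamini-Hochberg adjusted p 0.00572), but the value turned to 0.81 under quantile normalization and 0.04 under cyclic loess, so its direction depends on the scaling. Fance, the third of this group, overlapped at 199, 188 and 178 against 212, 155 and 179 (log2 0.06, 95% interval -0.24 to 0.36), and the value turned to -0.18 under cyclic loess and -0.05 without rib replicate 2. Fancb overlapped as well, at 98.8 to 115 against 104 to 121 (log2 -0.10, 95% interval -0.38 to 0.19), and turned to 0.32 under quantile normalization.

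The genes of the ubiquitin switch were all higher in RCS cells. Ube2t, the conjugating enzyme that works with FANCL, was at 239, 237 and 246 normalized counts in RCS cells and 43.1, 44.3 and 34.0 in rib tissue (5.87-fold, log2 2.55, SE 0.14, limma Benjamini-Hochberg adjusted p 9.87e-07). Its substrate Fanci was at 520.3, 462 and 481 against 164, 184 and 157 (2.89-fold, log2 1.53, SE 0.10). Usp1, which takes the ubiquitin off again, was at 715, 716 and 682 against 467, 479 and 467, a difference of 1.49-fold (log2 0.58, SE 0.07).

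In these libraries, genes whose proteins work as partners did not always differ by the same amount. This is described by a ratio inside each library, which needs no scaling between libraries. The log2 ratio of Eme1 to Mus81, on normalized counts plus 1 and not corrected for length, was -0.24, -0.30 and -0.38 in RCS cells and -1.83, -2.58 and -2.52 in rib tissue, a shift of 2.004. The ratio of Rad51c to Xrcc3 shifted by 3.16, from -2.60 ± 0.15 (SD, n = 3) in rib tissue to 0.56 ± 0.24 in RCS cells. That of Xrcc2 to Rad51d shifted by 1.87 and that of Ube2t to Fancl by 1.72. The groups did not overlap in these 4 ratios. Partners that moved more alike were Bard1 and Brca1 (shift 0.26) and Palb2 and Brca2 (shift -0.33), whose groups did not overlap either, and Rad50 and Nbn against Mre11a, where the shifts of -0.16 and -0.06 lay within overlapping groups. Each of the 6 ratios without overlap had an exact two-sided permutation p of 0.1, the smallest that 3 against 3 libraries can give, and 0.133 after Benjamini-Hochberg adjustment over the 8 pairs, so none passed. The pairs were chosen after the values were seen.

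**Figure D3:**
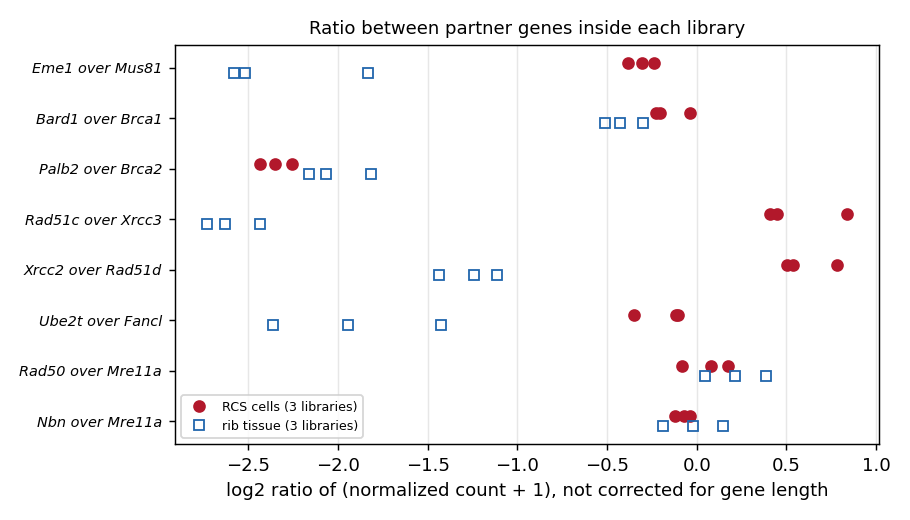
Log2 ratio between partner genes in each RCS library (filled circles) and each rib library (open squares), not corrected for gene length. The Rad51c to Xrcc3 ratio moves furthest, by 3.16, while the ratios inside the MRN complex overlap.

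Neighbours of the pathway were also mostly higher in RCS cells. Of 45 other recombination and Fanconi genes, all in the table and tested, 38 were higher in RCS cells, 2 lower and 5 in neither direction. Of all genes tested, 32.9% were higher and 43.6% lower. The 45 genes had a median log2 difference of 0.82. Parpbp, which restrains recombination, was at 638, 678 and 614 normalized counts in RCS cells and 105.0, 106 and 97.6 in rib tissue (log2 2.63, SE 0.09), and the RecQ helicase gene Recql4 at 662, 537 and 518 against 141, 92.8 and 87.4 (log2 2.43, SE 0.19). Fancd2, the partner of Fanci, was at 1110, 1012 and 979 against 257, 320 and 269 (log2 1.88, SE 0.10). Recql4 thus stood with Blm among the raised RecQ genes, while Wrn was lower.

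The 2 lower neighbours were Brcc3 and Rnf8, and 4 were lower under cyclic loess. Brcc3, the deubiquitinase of the BRCA1-A complex, had a listed value of 0 throughout the RCS libraries and stood at 115, 92.3 and 104 normalized counts in rib tissue. A listed 0 stands for a normalized count of 1 or less, and no fold is given. Of its partners in that complex, Babam1 was higher in RCS cells (log2 0.86, SE 0.13) and Uimc1 passed in neither direction (log2 0.14, SE 0.09). Rnf8, a ubiquitin ligase of damaged chromatin, was at 71.6, 74.5 and 65.2 against 138, 119 and 131 (log2 -0.87, SE 0.13, limma Benjamini-Hochberg adjusted p 0.000313). Rnf168, the ligase that acts after it, was higher in RCS cells, at 425, 439 and 504 against 220, 242 and 230 (log2 0.98, SE 0.09).

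The other repair pathways varied in their counts, where 32.9% of all genes tested were higher and 43.6% lower. In nucleotide excision repair, which cuts out bulky lesions, 8 of 18 genes were higher, 3 lower and 7 in neither direction (median log2 difference 0.31). Under quantile normalization 13 were higher and 1 lower, where 8000 of all 16809 genes tested were higher and 4924 lower. Of 9 end joining genes, 5 were higher, 1 lower and 3 in neither direction (median 0.26). Xrcc6 lost its higher call in 9 of 17 alternatives, which left 4 higher. There were 2 lower without RCS replicate 3, without rib replicate 1 or with array weights, and 0 lower under quantile normalization. Mismatch repair had 6 of 7 higher and 1 in neither direction (median 0.72), and base excision repair 12 of 17 higher and 5 in neither direction (median 0.87), 1 of which was called lower without rib replicate 3 or with array weights. The differences between these lists and the 36 genes were not tested.

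**Figure D4:**
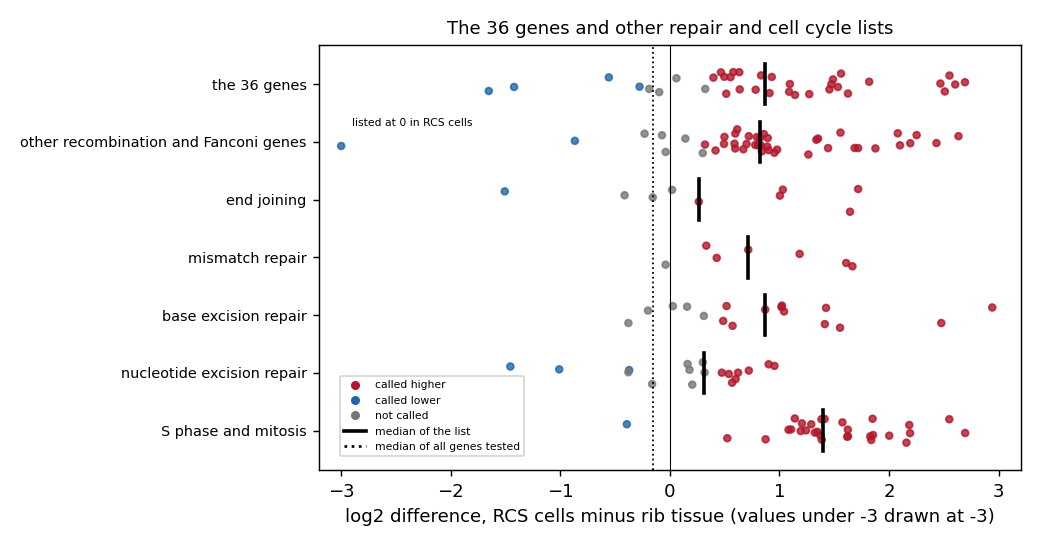
Log2 difference of every tested gene, RCS cells minus rib tissue, for the 36 genes, the neighbours of the pathway, the other repair lists and the S phase and mitosis list, with each list's median (bar) and that of all genes tested (dotted line). The medians run from 0.26 for end joining to 1.40 for S phase and mitosis, and Brcc3, listed at 0 in RCS cells, is drawn at the left edge.

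Genes of dividing cells were also mostly higher in RCS cells. Of 30 S phase and mitosis genes, 29 were higher in RCS cells and 1, Gins2, was lower (log2 -0.39). Of all genes tested, 32.9% were higher and 43.6% lower. The 30 genes had a median log2 difference of 1.40. Their summed normalized counts ran from 25879 to 28845 in the RCS libraries and from 9500 to 11277 in the rib libraries. Their part in the differences of the 36 genes was not tested. In bulk tissue, fewer cells that express a gene and less RNA per cell cannot be told apart.

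Cartilage markers were present in both groups. Of 10 chondrocyte markers, among them Sox9, Col2a1 and Acan, none was at 0 in every RCS library, 3 were higher in RCS cells, 2 lower and 5 in neither direction, with a median log2 difference of -0.07. Matn1, a cartilage matrix protein gene, was 3.25-fold higher, and Col2a1, the main cartilage collagen gene, 6.13-fold lower in RCS cells. Under quantile normalization 8 were higher and 1 lower, where 8000 of all 16809 genes tested were higher and 4924 lower. Under cyclic loess 6 were higher, where 6242 of all genes tested were higher. Without RCS replicate 2, rib replicate 1 or rib replicate 2, 1 of the 10 markers was higher. Their summed normalized counts ran from 61586 to 82532 in the RCS group and from 108043 to 177226 in the rib group, and without Col2a1 the sums overlapped, at 50806 to 65732 against 52448 to 79631.

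Markers of the other tissues of a rib separated the groups. All 7 skeletal muscle genes tested were lower in RCS cells, summing to 114 to 137 against 19969 to 34924, as were all 5 fibroblast genes (68 to 89 against 35286 to 65572), all 6 myeloid genes (27 to 39 against 1023 to 1941) and all 5 endothelial genes (5 to 21 against 1885 to 2982). Of 6 erythroid genes in the table, 3 (Alas2, Hbb and Slc4a1) were lower, 2 passed in neither direction and Gata1 was not tested. Of the 2, both were higher under quantile normalization and 1 under cyclic loess. The 3 lower genes, grouped by their call, summed to 0 to 2.15 against 264 to 915. The sums of the other 3 overlapped, at 13.4 to 17.1 against 10.3 to 30.8. Listed at 0 in every RCS library were Myog, Hbb, Ptprc, Itgam, Dcn, Prrx1, Cdh5, Kdr and Emcn. So was Gata1, which was near the floor in rib tissue as well, at 1.1, 1.5 and 0 normalized counts. The part of these cells in the lower rib levels of the 36 genes was not tested.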

How the data were processed

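RNA sequencing of 3 RCS cell and 3 rib tissue libraries was analysed from 1 deposited table of log2 values for 27217 genes. The log2 values deposited by the authors were taken as scaled read counts, with 1 scaling factor for each library: frequent low values fall on multiples of 1 step shared by genes of any length, although the table's name carries a unit per length. Values of 1 or less are listed as 0. The submitters' processing notes name CASAVA 1.8, DESeq and rn5 without a role. Aligner, counting rule and strand use: not given in the sources used here. Whole reads (within 0.01) made up 38.7% to 55.6% of low values in a library, so no count model was used. The depth estimated from the step was 6000000 to 8520000 reads for the RCS group and 5320000 to 7490000 for the rib group, and 3 reads equal 1.56 to 3.08 normalized counts.

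Groups and replicate numbers came from sample titles. Log2(normalized count + 1) was tested with limma 3.58.1 in R 4.3.3 (two-sided, with an intensity trend). The 16809 genes tested reached a normalized count of 1 in 3 or more of the 6 libraries. Calls used a threshold of 0.05 on the p adjusted by Benjamini-Hochberg over all genes tested. Fold changes are on this scale, which understates low genes. The fit was tested on simulated data. Of the genes on the other lists, 159 were found by symbol, 6 by Entrez identifier and 2 not found. Alternatives were other scalings, pseudocounts, filters, weights, a replicate block, summed symbols and leaving out each library on the same genes. Genes with values in every library were, in each role, the largest called differences in each direction and the smallest difference, with Brca1, Brca2, Fanca, Fancd2, the 3 largest called differences each way among the neighbours (2 were lower, and 1 gene is not reported here), and genes whose call or direction changed in more than 2 alternatives. Atr, Chek1, Xrcc2, Rad54b, Fancc, Fanci, Rnf168, Babam1, Uimc1, Matn1, Col2a1 and FSBP were added after their values were seen. The 36 genes and the lists were chosen with earlier results of these data known.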

Additional observations from a re-analysis of the deposited data

How the results depend on the processing

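Over 17 alternatives, 27 of the 28 higher genes (all but Fancg) and 2 of the 4 lower genes (Fancc and Xrcc3) kept their call. Of 612 values of single genes, 591 kept direction and side of the threshold. In 11 a call was lost with the direction kept, in 4 a call was gained and in 6 the sign changed. None of the 6 passed the threshold in the new direction. They include Fancf, whose call was lost under quantile normalization and cyclic loess. Quantile normalization moved the median of all genes by 0.47 and cyclic loess by 0.18 towards RCS cells, and 61.9% and 50.1% of called genes were then higher in RCS cells, against 43.0% in the reported fit. The median of the 36 genes, 0.87, was 1.09 under quantile normalization, 0.73 under cyclic loess and 0.77 with array weights, and 0.787 to 0.959 with single libraries left out. It lay 1.02 above the median of all genes, 0.77 under quantile normalization and 0.70 under cyclic loess. Under quantile normalization 2 of the 36 were lower, and 3 in place of 6 genes of the other repair lists. Among the 36 genes and the neighbours, reversed values were, under quantile normalization, Fancb 0.32, Fancf 0.811, Atm 0.0759 and Hus1 0.0322, under cyclic loess Fancf 0.0392, Fance -0.176 and Uimc1 -0.0509, without rib tissue replicate 2 Fance -0.0515, and without RCS cells replicate 2 Hus1 0.041. On the 4 other repair pathways 9 of 51 genes, none of them called, changed sign in 1 or more alternatives. With single libraries left out, Fance ran from -0.0515 to 0.177 and Hus1 from -0.0898 to 0.041. The cause was not tested. Leaving out single libraries gave 27 to 29 higher and 3 to 5 lower genes of the 36, and 65 to 69 higher and 6 to 7 lower of the other repair genes.

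Same-numbered libraries deviated from their group means with correlations of 0.06, -0.08 and 0.05 for replicates 1 to 3, so the numbers were not taken as pairs. Not every library correlated best with its own number. The replicate block gave 27 higher and 4 lower of the 36 genes, with 5536 higher and 7340 lower genes in all. Depth limits Fancf most, at about 5.7 to 35.1 reads per library.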

Other observations

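Rad51l1, the former symbol of Rad51b and therefore outside the rule by which the genes were chosen, had normalized counts of 31.9, 29.4 and 43.5 in RCS replicates 1 to 3 and of 22.7, 31.3 and 22.7 in rib replicates 1 to 3. The groups overlapped and the log2 difference of 0.43 (95% interval -0.13 to 0.99) did not pass the test in limma.

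Over the 36 genes, the libraries of a group differed in how often they stood at its edge. The same count over all genes tested is not given here. RCS cells replicate 2 was the lowest of its group at 23 of the 36 genes, and rib tissue replicate 2 was the highest of its group at 20 of the 36. Chek1, Rad54b, Palb2 and RAD54L were among the latter.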
